A study of Mus musculus with 10 samples.

Results

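Qki-5 had 2858 peaks at one-directional promoters with RNA polymerase II (Pol II), among the 7539 peaks called for it in wild-type (WT) mouse cells labelled as oligodendrocytes, a share of 37.9% with an exact Clopper-Pearson 95% interval of 36.8% to 39.0%. A promoter was called one-directional where the annotated transcription start sites (TSSs) within 1 kb of the Qki-5 summit, the base with the strongest signal of the peak, all lay on one strand. The peaks were chosen by 3 measured conditions: no overlap with a peak of the Qki-5 antibody in Qk-/- cells, overlap by at least 1 bp with a WT Pol II peak, and TSSs of the GENCODE M21 basic annotation on one strand only. Over all WT Qki-5 peaks, 95.9% had no Qk-/- counterpart and 79.3% overlapped Pol II, and since both conditions were part of the choice, nothing is read from them. Of the 7233 peaks without a Qk-/- counterpart, 5839 overlapped Pol II, and these fell into the 2858 peaks with TSSs on one strand, 995 with TSSs on both strands and 1986 with no TSS within 1 kb.

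The cells were neural stem cells (NSCs) taken from whole brains of newborn Nestin-CreERT2;Qk L/L pups, in which exon 2 of Qk is flanked by loxP sites and the Cre is driven by the Nestin promoter of neural progenitors. The labels give the strain as an FvB/C57BL6 hybrid, whereas the study's text describes its mice as pure C57BL/6J. Qk was deleted in culture with 4-hydroxytamoxifen, and the cells were differentiated in medium with the thyroid hormone T3. The sources do not state whether the WT libraries came from untreated cells of the same pups. The lists compared were Qki-5, Pol II and Srebp2 in Qk-/- cells (427, 12835 and 28 peaks) and the same antibodies in WT cells (7539, 32280 and 77 peaks), with 1 library for each antibody and genotype, from cells at passage 7 for Qki-5 and Pol II, which shared an input in each genotype, and at passage 8 for Srebp2, which had its own inputs. With no replicates, no test was made between genotypes or between groups of peaks, and every interval covers counting error only. The lists hold no read totals, so the depth is unknown and fold enrichment over the input was compared only within a list. Among markers of mature oligodendrocytes, Cnp, Olig1 and Olig2 had a WT Pol II peak within 1 kb of a TSS, whereas Mbp, Mag, Mog, Mobp, Aspa, Myrf and Sox10 had none. All 5 NSC markers, 3 of 4 oligodendrocyte precursor markers, 3 of 5 astrocyte markers, 2 of 5 neuronal markers and 0 of 5 microglial markers had one, so the myelin genes Mbp, Mag, Mog and Mobp, which mark the labelled cell type, were without Pol II peaks. Each Qki-5 and Pol II peak also carries a name that starts with mNSC, which is OL for Srebp2 peaks, so the cell stage behind the values given here is uncertain.

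Qki-5 is the nuclear isoform of Qki, an RNA-binding protein of the STAR family that regulates splicing and is needed for myelination, and in chromatin immunoprecipitation it is recovered with DNA. Pol II initiates at promoters and often pauses a short way downstream of the TSS before it elongates. Many mammalian promoters are rich in CpG dinucleotides, lack a TATA box and start transcription on both strands, although only one direction gives a stable, annotated transcript. One-directional therefore describes the annotation here and not the transcription, which was not measured by strand.

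Windows at the Qki-5 summits of 6 promoters show the sequence letters on which the comparison of motifs turns, chosen after their values were seen. They cover 60 bp to each side of the summit, on the strand of the TSS, in mm10 coordinates with bases from the RefSeq copy of GRCm38.p6. Capitals mark the E-box CACGTG, the GC box GGGCGG, the CCAAT box CCAAT, the TATA box TATAAA and the NFI motif TTGGCA, read on either strand. The Khdrbs1 window (chr4:129742417-129742537, minus strand) held an E-box at 2 places, the Cipc (chr12:86947232-86947352, plus), Nsd3 (chr8:25601497-25601617, plus) and Dnpep (chr1:75317652-75317772, minus) windows combined an E-box with a GC box, the Eif3f window (chr7:108934291-108934411, plus) held an E-box beside a TATA box, and the Hmgcs1 window (chr13:119690110-119690230, plus) had CCAAT boxes without an E-box.
Khdrbs1: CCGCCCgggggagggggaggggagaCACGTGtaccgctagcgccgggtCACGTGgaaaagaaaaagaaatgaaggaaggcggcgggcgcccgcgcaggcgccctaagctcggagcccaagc
Cipc: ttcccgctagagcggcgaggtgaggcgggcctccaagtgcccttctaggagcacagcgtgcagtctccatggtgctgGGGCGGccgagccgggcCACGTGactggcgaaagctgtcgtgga
Nsd3: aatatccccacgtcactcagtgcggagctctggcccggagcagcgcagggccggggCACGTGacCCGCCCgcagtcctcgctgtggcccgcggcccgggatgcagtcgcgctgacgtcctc
Dnpep: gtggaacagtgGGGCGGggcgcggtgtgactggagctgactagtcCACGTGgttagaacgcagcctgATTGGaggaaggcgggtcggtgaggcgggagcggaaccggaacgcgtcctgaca
Eif3f: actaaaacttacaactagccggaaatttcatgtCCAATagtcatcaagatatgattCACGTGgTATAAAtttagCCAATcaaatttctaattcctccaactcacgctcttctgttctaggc
Hmgcs1: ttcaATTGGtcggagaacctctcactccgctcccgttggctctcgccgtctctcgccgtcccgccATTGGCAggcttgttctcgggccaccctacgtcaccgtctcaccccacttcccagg

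A pair of windows at small nuclear RNA (snRNA) genes is given for another reason. The Gm22634 (chr12:54710220-54710340, plus strand) and Gm22317 (chr12:54738591-54738711, minus strand) windows, both at chromosome 12, shared a run of 120 of 121 bases, and no letters are in capitals because none of the motifs occurred.
Gm22634: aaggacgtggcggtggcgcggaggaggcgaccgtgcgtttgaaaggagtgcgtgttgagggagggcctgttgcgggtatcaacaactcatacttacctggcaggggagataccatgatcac
Gm22317: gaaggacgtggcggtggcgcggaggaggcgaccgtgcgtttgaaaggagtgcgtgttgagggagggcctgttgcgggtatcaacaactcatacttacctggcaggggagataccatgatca

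The annotation around the members was mostly simple. Their nearest TSSs belonged to 2692 genes, 1475 of the peaks faced a plus-strand and 1383 a minus-strand TSS, and 2763 peaks (96.7%) had TSSs of a single gene within 1 kb. The nearest TSS on the other strand lay a median of 21332 bp away, over 10 kb for 2078 peaks (72.7%) and between 1 and 2 kb for 152 (5.32%). The fuller M21 annotation, which the choice did not use, placed a TSS of the other strand within 1 kb of 91 peaks (3.18%). At the distance limit, the summits of Gm26537, Gm44005 and a second peak of Sox2 lay 1000, 997 and 996 bp from the TSS, and the nearest left out were Gm45889, Ddit4 and Gamt at 1001, 1003 and 1008 bp. At the strand limit, Hipk2, Ncor1 and Cxxc5 were left out because a TSS of the other strand lay 998, 997 and 997 bp from their summits.

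Qki-5 and Pol II summits of the same promoters were placed differently around the TSS. The Qki-5 summit lay at a median of 15.0 bp downstream of the nearest TSS, with quartiles at -99.8 and 137 bp, and 69.4% of the summits (67.7% to 71.1%) were within 200 bp. The summit of the strongest overlapped Pol II peak, measured from that same TSS, lay at a median of 76.0 bp downstream, with quartiles at -28.0 and 138 bp. Downstream positions held 55.1% of Qki-5 summits (53.3% to 57.0%) and 72.9% of Pol II summits (71.2% to 74.5%). The 200 bp upstream of the TSS held 31.2% of Qki-5 summits (29.5% to 32.9%) and 11.6% of Pol II summits (10.4% to 12.8%). In the 200 bp downstream, where paused Pol II is usually found, were 37.9% of Qki-5 summits and 57.3% of Pol II summits. Pol II summits of one-directional promoters without Qki-5 lay at a median of 63.0 bp downstream, near those with Qki-5. The limit of 1 kb to a TSS applied to the Qki-5 summit and not to the Pol II summit, which lay more than 1 kb away at 96 peaks (3.36%).

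**Figure D1:**
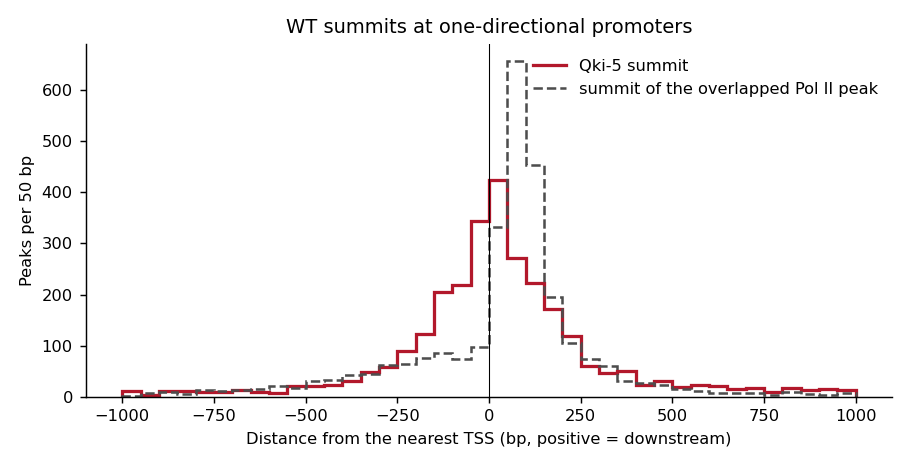
Number of summits in bins of 50 bp (y axis) by signed distance in bp from the TSS nearest to the Qki-5 summit (x axis). The curves are for the 2858 WT Qki-5 peaks (solid red) and the WT Pol II peaks they overlapped (dashed grey). The Pol II summits pile up between 1 and 200 bp downstream, which holds 57.3% of them, whereas 31.2% of the Qki-5 summits lie 1 to 200 bp upstream.

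Set against the Pol II summit of the same promoter, the Qki-5 summit was upstream at 57.1% of the peaks (55.3% to 59.0%) and downstream at 42.7% (40.9% to 44.6%), at a median of -30.0 bp. The distance in either direction had a median of 137 bp, and 40.6% of the pairs were within 100 bp. Of the Qki-5 summits, 98.8% lay inside a Pol II peak, but overlap with Pol II was part of the choice, so nothing is read from this share. Hmgcs1, which makes the substrate of HMG-CoA reductase, had its Qki-5 summit 276 bp upstream and its Pol II summit 69 bp downstream of the TSS. Khdrbs1, which encodes the STAR protein Sam68, had them 181 bp upstream and 32 bp downstream. Actb, which encodes β-actin, showed the other order, with the Qki-5 summit 860 bp downstream and the Pol II summit 29 bp downstream.

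By annotation, 37.7% of Qki-5 summits (35.9% to 39.5%) were in a non-coding exon or untranslated region, 31.8% outside transcripts, 21.2% in an intron and 9.24% in a coding exon. In 157 genes the Qki-5 signal was split into 2 or more peaks, 148 genes with 2 and 9 with 3. In 107 of these genes, peaks lay both upstream and downstream, each measured from its own nearest TSS, which can differ between peaks. In 89 of the 107, the peaks shared a single strongest overlapped Pol II peak. Zfp36l1, which encodes an mRNA decay factor, had Qki-5 peaks at -365 and 90 bp with fold enrichments of 4.51 and 7.27. Vim, the intermediate filament of NSCs and astrocytes, had them at -405 and 109 bp with 4.78 and 6.40. Nova1, a neuronal splicing regulator, had 3 peaks, at -805, -142 and 339 bp, under 1 Pol II peak.

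Qki-5 enrichment at these promoters was modest and varied little with Pol II. The fold enrichment had a median of 5.06, with quartiles of 4.24 and 6.06 and a range of 2.46 to 21.6, against 5.06 at promoters with TSSs on both strands and 5.34 over all WT Qki-5 peaks. The peaks were a median of 356 bp wide. In 5 classes of equal size from low to high Pol II fold enrichment, the median Qki-5 fold was 5.01, 4.92, 5.06, 5.11 and 5.31. Spearman's rho between Qki-5 and Pol II fold enrichment was 0.083 across the 2858 peaks, which share the libraries and in part the Pol II peaks. Whether a Qki-5 peak was called at all went much further with Pol II. Among all 10429 one-directional WT Pol II peaks, 3.58% overlapped Qki-5 where the Pol II fold enrichment was under 5, and the share was 13.0% from 5 to 10, 30.2% from 10 to 20, 47.9% from 20 to 40 and 67.5% (62.4% to 72.2%) from 40 up. The Pol II peaks of the members had fold enrichments around a median of 20 and widths around a median of 1741 bp, against 9.60 and 836 bp for the 7653 one-directional Pol II peaks without Qki-5. As the overlap with Pol II was part of the choice and a wide peak is overlapped more easily, these values are a description.

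**Figure D2:**
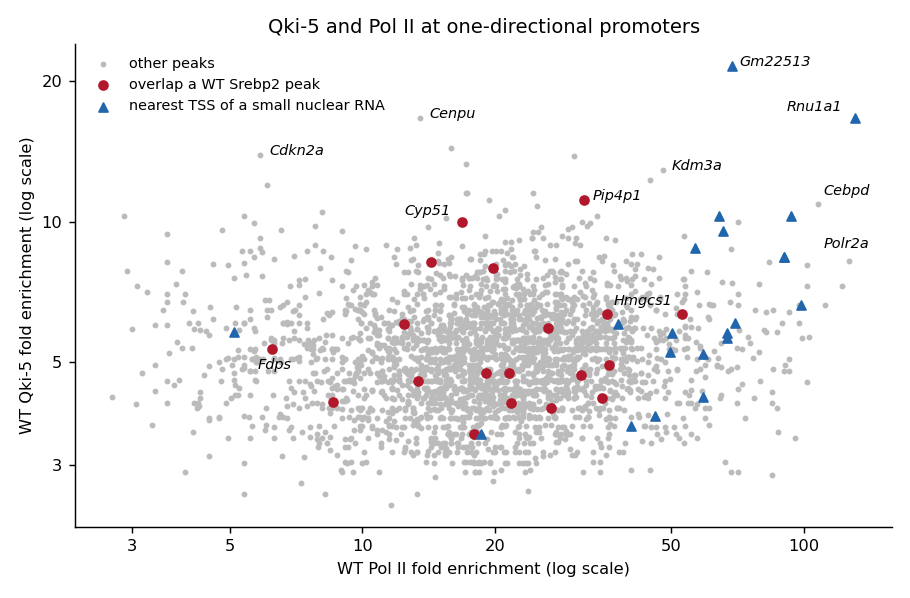
WT Qki-5 fold enrichment (y axis, log scale) against WT Pol II fold enrichment (x axis, log scale) for the 2858 peaks, with those overlapping a WT Srebp2 peak as red circles, those nearest to an snRNA TSS as blue triangles and the others in grey. The snRNA promoters lie to the right, with a median Pol II fold of 64.2, and the cloud as a whole shows little slope, with rho at 0.083.

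The strongest Qki-5 peaks had diverse genes nearest to their summits. After the snRNA gene Gm22513 (21.6) came Cenpu, which encodes a centromere protein, and the U1 snRNA gene Rnu1a1 (both 16.7), Atp6v1h, a subunit of the vacuolar proton pump (14.4), the tumor suppressor locus Cdkn2a (13.9), Cipc, a partner of the Clock protein (13.8), Cpsf1, a subunit of the mRNA 3' end processing complex (13.3), the H3K9 demethylase gene Kdm3a (12.9), Lcn2, the iron carrier lipocalin-2 (12.3), and the pseudogene Gm47554 (12). Their Pol II fold enrichments covered a wide range, with 5.87 at Cdkn2a and 131 at Rnu1a1. Some of these Qki-5 summits were far from the TSS. Those of Gm22513 and Gm47554 lay 744 and 982 bp downstream, outside transcripts, and that of Cdkn2a 447 bp downstream in an intron. The rest lay within 259 bp of the TSS. At Lcn2 the assigned Pol II peak was a wide one with its summit 5906 bp away, shared with the widest Qki-5 peak, that of 1110008P14Rik. The highest Pol II fold enrichments were at Rnu1a1 (131), Polr2a, the largest subunit of Pol II itself (127), Atp1b2, a sodium pump subunit (122), the AP-1 gene Junb (112), Cebpd (108), the creatine kinase gene Ckb (103), the glial transcription factor Sox9 (102), Zfp36l1 (102) and the antiproliferative gene Btg2 (99.1). The Qki-5 folds of these 9 genes were between 4.51 and 16.7. Qk itself was a member (chr17:10319700-10320135), with a Qki-5 fold of 8.13 at 510 bp upstream of its TSS, which ranked 127 of 2858, and a Pol II fold of 9.48 in Qk-/- cells and 14.9 in WT cells, on the separate scales of these lists.

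Protein-coding genes held the nearest TSS of 2596 peaks, 90.8% (89.7% to 91.9%), followed by 83 peaks at long intergenic RNAs, 38 at antisense RNAs, 29 at miRNAs and 21 at snRNAs. The 21 snRNA peaks, at 17 genes, had a median Pol II fold of 64.2, against 20.5 at protein-coding genes, 11.5 at long intergenic RNAs and 15.0 at miRNAs, and a median Qki-5 fold of 6.02, against 5.06 at protein-coding genes. SnRNAs are the RNA cores of the spliceosome and of histone mRNA processing, and most are transcribed by Pol II from short promoters with no TATA box. Rnu7, the U7 snRNA of histone 3' end formation, had a Qki-5 fold of 9.54 and a Pol II fold of 65.8. Of the 21 peaks, 7 lay at 5 genes of chromosome 12, among them Gm22513, Gm22634 and Gm22317. Because the Gm22634 and Gm22317 windows printed above share 120 bases, and windows at Gm24305 and Gm23804 share 107, reads from these copies may not be told apart and their folds (8.79 to 10.3 at the first pair) are uncertain. Windows at Gm23849, Gm25360 and Gm23444 also share runs of 39 to 71 bases, so the median Pol II fold of 64.2 is uncertain too. That median counts a Pol II peak again where 2 snRNA peaks share it, as at Gm24305, Gm25360 and Gm22614. Of the 21, 20 had a Pol II peak that overlapped one in Qk-/- cells, against 91.7% of all members.

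Pol II remained detectable at most of these promoters without Qki. In Qk-/- cells, 2622 of 2858, or 91.7% (90.7% to 92.7%), had a WT Pol II peak that overlapped a Qk-/- Pol II peak, against 69.0% of all one-directional WT Pol II peaks and 60.9% of those without Qki-5. The Pol II fold enrichment in WT cells moved with this share. Members and one-directional Pol II peaks without Qki-5 had shares of 12.3% and 8.69% at a WT Pol II fold under 5, 57.8% and 46.9% from 5 to 10, 96.0% and 91.9% from 10 to 20, and 99.8% and 99.3% from 20 to 40, and both reached 100% from 40 up. The share was 97.1% at the promoters with TSSs on both strands and 29.7% at the Qki-5 peaks with Pol II but no TSS within 1 kb. Where both genotypes had a peak, the Pol II summit in Qk-/- cells lay within 100 bp of the WT summit at 82.6% of the promoters (81.1% to 84.1%), with a median distance of 30.0 bp. When the Qk-/- peak had to cover 50% of the WT peak, the share was 47.0% for the members, 36.6% for all one-directional WT Pol II peaks and 32.8% for those without Qki-5. The Qk-/- list has 12835 Pol II peaks and the WT list 32280, and fewer Pol II sites and a shallower library cannot be told apart. An overlap by 1 bp shows that a peak was called in both genotypes and gives no level of Pol II. The study's text reports lower Pol II occupancy at most Srebp2-bound promoters after Qki depletion, a measure that was not made here.

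**Figure D3:**
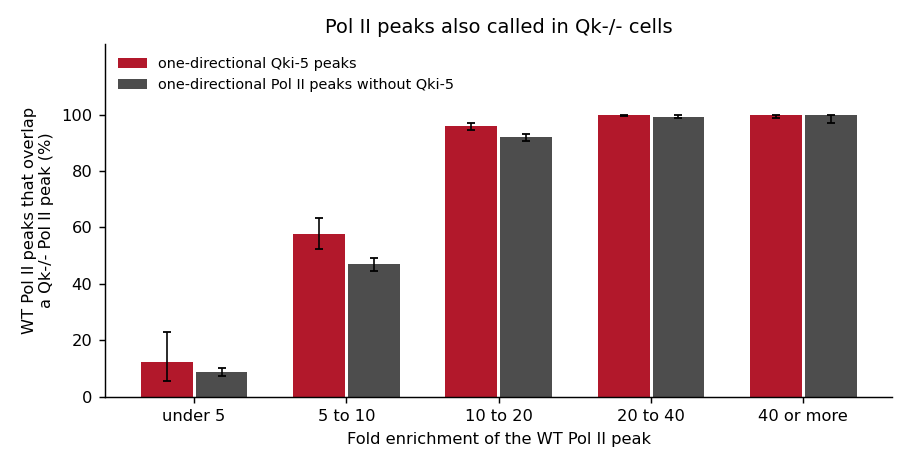
Share of WT Pol II peaks that overlap a Qk-/- Pol II peak (y axis, %) by WT Pol II fold enrichment (x axis, 5 classes), for the one-directional Qki-5 peaks (red, left bar) and the one-directional Pol II peaks without Qki-5 (grey, right bar), with exact 95% intervals. Bars of both kinds climb together, from 12.3% and 8.69% in the lowest class to 100% in the highest.

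The 236 members whose Pol II peak had no Qk-/- counterpart (8.26%) had weak Pol II peaks in WT cells, with a median fold of 6.66 against 21.1 for those that had one. Their Qki-5 fold was not lower, at a median of 5.48 against 5.06. The strongest by Qki-5 were Cpsf1 (13.3), Gm47554 (12) and the phosphatase gene Ppm1h (10.5), with WT Pol II folds of 17.2, 6.07 and 8.08. Those strongest by WT Pol II were Ino80b of the INO80 chromatin remodeler (21.4), the dipeptidase gene Cndp2 (21.1) and the phosphodiesterase gene Pde4b (19.2). Egr1, Igf2bp2, Eif3h, Hsph1 and the cholesterol genes Fdps and Stard4 were also among the 236.

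The sequence at the Qki-5 summit was mostly rich in CpG. A window of 100 bp to each side was called CpG-rich with a GC share of at least 55% and a CpG count of at least 0.65 of that expected from its bases. By this measure 80% of the members (78.5% to 81.4%) were CpG-rich, against 85.0% of the Qki-5 peaks with TSSs on both strands, 57.7% of the one-directional Pol II peaks without Qki-5 (at their Pol II summit), 11.8% of the Qki-5 peaks with Pol II and no TSS, and 20.8% of windows at 1 TSS for each annotated gene. At the Pol II summits of the same 2858 members, 2363 windows were CpG-rich, against 2286 at their Qki-5 summits. The CpG content therefore describes these promoters and was not particular to the Qki-5 summit. The median GC share of the members was 69.2%. Gm22513, Rnu1a1, Cdkn2a, Kdm3a and Lcn2 were the strongest members that were not CpG-rich, with GC shares of 45.3%, 46.8%, 36.3%, 54.2% and 54.2%.

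Exact motif letters were counted in the same windows on both strands, and a match describes the letters and not a bound factor. The E-box CACGTG, read by basic helix-loop-helix proteins such as Usf and Myc, was in 9.69% of the member windows (8.63% to 10.8%), against 4.44% of the windows at the Pol II summits of the same promoters (3.72% to 5.26%), 4.08% at one-directional Pol II peaks without Qki-5 (3.64% to 4.54%) and 3.65% of all gene starts. Promoters with TSSs on both strands had it at 9.55% of their Qki-5 summits. Within CpG-rich windows alone, the E-box was in 10.3% of the member windows (9.06% to 11.6%), 4.91% of those at their Pol II summits (4.07% to 5.86%) and 4.37% of those at Pol II peaks without Qki-5 (3.79% to 5.01%). The nearest E-box also lay closer to the summit, at a median of 38.5 bp with 65.7% within 50 bp (59.8% to 71.3%), against 58.5 bp with 37.8% (32.4% to 43.5%) at Pol II peaks without Qki-5. The same held for the Ets motif CCGGAAG, with 58.4% against 37.7% within 50 bp, the GC box, with 64.6% against 53.4%, and the CCAAT box, with 52.1% against 44.5%. At the members' own Pol II summits, the shares within 50 bp were 28.3% for the E-box, 36.1% for Ets, 53.4% for the GC box and 37.1% for the CCAAT box. In the windows printed above, the Khdrbs1 summit with its E-boxes lay 181 bp and the Nsd3 summit 44 bp upstream of the TSS. The windows compared were not matched for position around the TSS. The 200 bp upstream of it held 31.2% of the Qki-5 summits and 11.6% of the members' Pol II summits. The part of position in the shares and distances of the E-box and the other motifs was not tested.

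Other motifs differed as well. The GC box GGGCGG, bound by Sp1, was in 57.8% of the member windows (56.0% to 59.6%), 54.9% of those at their Pol II summits and 40.4% of those at Pol II peaks without Qki-5. The Ets motif CCGGAAG was in 12.5%, 10.3% and 8.45% of these windows in the same order, the cyclic AMP response element TGACGTCA in 1.89%, 0.805% and 1.15%, the Nrf1 core CGCATGCG in 2.31%, 1.57% and 1.23%, and the CCAAT box of NF-Y in 15.7%, 9.62% and 15.0%. Within CpG-rich windows alone the shares in that order were 66.0%, 61.4% and 58.4% for the GC box, 13.6%, 11.0% and 11.4% for Ets, 2.23%, 0.889% and 1.52% for the cyclic AMP response element, 2.45%, 1.78% and 1.61% for the Nrf1 core and 14.3%, 7.70% and 10.4% for the CCAAT box, so the gap of the GC box to Pol II peaks without Qki-5 was smaller there and that of the CCAAT box larger. The NFI motif TTGGCA was in 7.00% of the member windows (6.09% to 8.00%), 4.44% of those at their Pol II summits and 6.44% of those at Pol II peaks without Qki-5, against 26.4% of the Qki-5 peaks with Pol II and no TSS within 1 kb (24.4% to 28.4%), and the Sox motif AACAAT in 2.87% against 9.13%. The TATA letters were in 2.13% of member windows, and they stood 20 to 40 bp upstream of the TSS on its strand at 25 members, 0.875% (0.567% to 1.29%), among them Polr2a, Junb and Ckb, against 1.39% of all gene starts. The DNA letters of the RNA site of Qki, ACTAAC and ACTAAT, were in 1.99% and 0.875% of the member windows. At their Pol II summits the shares were 1.99% and 0.805%, and at Pol II peaks without Qki-5 they were 2.53% and 2.04%. Over all WT Qki-5 peaks they were 2.87% and 2.56%, and at all gene starts 4.22% and 4.40%. The median GC share was 69.2% in the member windows and 49.8% at gene starts, and its part in these shares was not tested. On the strand of the TSS, ACTAAC was at 24 members (0.840%) and its reverse form at 34 (1.19%), against 1108 (2.00%) and 1262 (2.28%) of all gene starts.

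**Figure D4:**
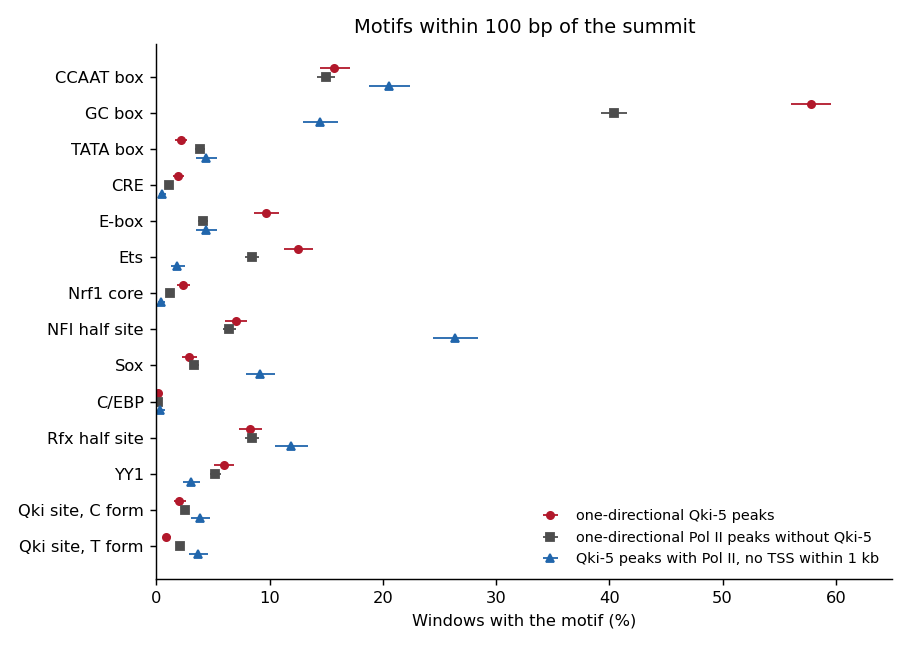
Share of windows of 100 bp to each side of the summit that hold each of 14 motifs (x axis, %; motifs on the y axis), with exact 95% intervals, for one-directional Qki-5 peaks (red circles), one-directional Pol II peaks without Qki-5 (grey squares, at the Pol II summit) and Qki-5 peaks with Pol II but no TSS within 1 kb (blue triangles). The E-box stands at 9.69% in the first set and 4.08% in the second, and the NFI motif at 7.00% in the first and 26.4% in the third. The sets were not matched for position around the TSS.

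Srebp2, the transcription factor that activates sterol synthesis, overlapped 19 members, 0.665% (0.401% to 1.04%), against 0.424% of all WT Qki-5 peaks and 0.804% of the Qki-5 peaks with TSSs on both strands. Conversely, 19 of the 77 Srebp2 peaks (24.7%) overlapped a member, and 33 of the 77 (42.9%) overlapped a WT Qki-5 peak of any kind. The study's text describes longer Qki-5 and Srebp2 peak lists than those analysed here, so these shares hold for the deposited lists only. The strongest Srebp2 folds were at Msmo1 (57.6), Cyp51 (50.2) and Hmgcs1 (48.3), enzymes of cholesterol biosynthesis, and at Srebf2 (41.1), the gene of Srebp2 itself, followed by Pank3 (20.4), Fdps (20.1), Csnk1g2 (19.6), Dnpep (13.7), the sterol carrier gene Stard4 (12.1), Sub1 (11.3), Pcmtd1 (10.8) and Tmem170b (10.6). Over the 19, the Qki-5 folds had a median of 4.92 and a range of 3.49 to 11.1. The Qki-5 and Srebp2 summits were a median of 94.0 bp apart, within 200 bp at 12 of the 19, and the Srebp2 summit was upstream of the TSS at 15 and the Qki-5 summit at 7. In Qk-/- cells, a Srebp2 peak overlapped 4 of the 19, Msmo1, Cyp51, Hmgcs1 and Pip4p1, and 2 members without a WT Srebp2 peak, Kifap3 and Patl1. The Qk-/- Srebp2 list holds 28 peaks and the WT list 77, and whether the 4 of 19 is particular to these promoters was not tested. Of the 19, 17 had a Pol II peak in Qk-/- cells that overlapped the WT one, against 91.7% of all members, and the others were Fdps and Stard4. At Dnpep, whose window is printed above, the Qki-5 and Srebp2 summits lay 53 and 135 bp upstream of the TSS. The Srebp2 libraries were made at another passage.

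Gene lists drawn up with earlier results of these data known were counted among genes with a WT Pol II peak within 1 kb of a TSS. Of 15034 such genes, 17.9% were the nearest gene of a member, and of the 11715 protein-coding ones 20.9%. Translation factors had a member at 17 of 30 genes (56.7%, 37.4% to 74.5%), histone methyltransferases and demethylases at 16 of 30 (53.3%), neural lineage transcription factors at 12 of 25 (48.0%), immediate early genes at 7 of 16 (43.8%), hnRNP and SR splicing factors at 11 of 31 (35.5%), heat shock proteins and chaperones at 8 of 24 (33.3%) and cytoskeleton genes at 6 of 20 (30.0%). Cholesterol biosynthesis, with 4 of 22 (18.2%), and glycolysis, with 3 of 17 (17.6%), were near the background. A WT Qki-5 peak within 1 kb of a TSS, but no member, was at 13 further splicing factors, 8 chaperones, 6 translation factors, 5 histone enzymes and 1 neural factor, so this order describes one-directional promoters and not Qki-5 binding of the lists as a whole. The Pol II fold enrichment of the lists differed as well, with medians of 16.7 for translation factors, 18.8 for the histone enzymes, 20.9 for the neural factors, 50.4 for the immediate early genes and 14.4 for cholesterol biosynthesis, against 15.9 for all protein-coding genes with Pol II, and its part in these shares was not tested.

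**Figure D5:**
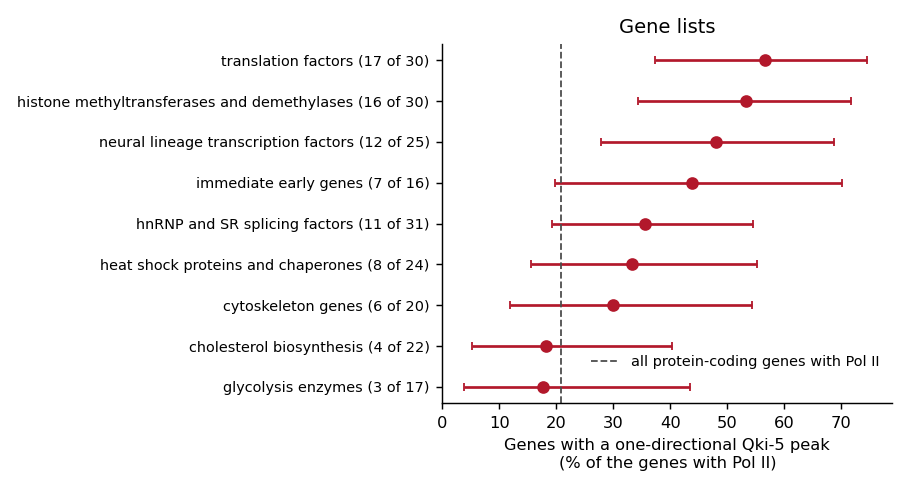
Share of the genes with WT Pol II that were the nearest gene of a one-directional Qki-5 peak (x axis, %), for the 9 gene lists with 10 or more such genes (y axis, counts in brackets), with exact 95% intervals. The dashed line is the 20.9% of all protein-coding genes with Pol II. The lists were drawn up with earlier results of these data known and the intervals cover counting error only, so no enrichment is read from them.

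Among translation factors, which load ribosomes on mRNA, the Qki-5 folds were between 2.92 at Eif1 and 9.29 at the RNA helicase gene Eif4a2, with Eif4a1 at 7.82 and Eif5 at 6.67. Genes of the eIF3 complex, which holds the small ribosomal subunit, were among them with Eif3a, Eif3b, Eif3d, Eif3e, Eif3f, Eif3g and Eif3h, whereas Eif3c and Eif3i had Pol II and no member. Among enzymes that add or remove histone methyl marks were Kdm3a (12.9), Kdm3b (6.28) and Kdm1a (6.02), and also Ezh2, the catalytic subunit of Polycomb complex PRC2 (4.78), Setd2, which methylates H3K36 (4.76), and Nsd3 (3.42). At all 16 the Pol II peak, with a WT fold between 6.97 and 48.0, overlapped one in Qk-/- cells, as did 91.7% of all members.

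Neural lineage factors with a member included Tcf4 (10.3), Sox9 (8.05) and the Notch target Hey1 (7.80), and all 4 nuclear factor I genes, Nfia (5.29), Nfib (6.80), Nfic (6.31) and Nfix (7.51), whereas Sox11, Pax6 and Nkx2-2 had Pol II and no member. Of the Id genes, Id4 (4.06) had a member, and Id1, Id2 and Id3 had Pol II and no member. The immediate early genes, which respond fast to stimuli, were Jun and Junb (both 6.62), Atf3 (5.81), Btg2, Egr1, Dusp1 and Fosl2, whereas Fos, Fosb, Ier2 and Myc had Pol II and no member. Splicing factors were led by Hnrnph1 (9.91), Hnrnpl (6.33) and Hnrnpa2b1 (5.77). Besides Qk, the STAR and Igf2bp genes with a member were Khdrbs1 (7.16) and Igf2bp2 (4.78), out of 5 with Pol II. Of the cell type markers, Cnp (5.56) and Olig1 (4.53) of the oligodendrocyte list and Vim (6.40) and Sox2 (5.31) of the NSC list had a member, and none of the precursor, astrocyte and neuronal markers with Pol II did, out of 3, 3 and 2. A WT Qki-5 peak that was no member was at 1 further NSC marker and 1 astrocyte marker. Beside the 20.9% of all protein-coding genes with Pol II, these lists are too short to compare, and no difference between cell types is read from them.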

How the data were processed

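ChIP-seq peak lists were read for Qki-5, Pol II and Srebp2 in Qk-/- and WT cells, 1 library per list. The stated methods are trimming by Trim Galore, alignment to mm10 by Bowtie2, removal of duplicates, and MACS2 peak calling over the matching input at a q-value of 0.05. The submitters' processing notes give Bowtie 1.2.2 as the aligner instead, besides bcl2fastq, and MACS2 in version 2.1.2. The fold enrichment deposited by the authors is a ratio, the pileup of reads at the summit over the background MACS2 estimated around it. The −log10 p-value and −log10 q-value columns deposited by the authors come from the MACS2 test at the summit. The deposited score equals the −log10 q-value multiplied by 10 and rounded down in every row.

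TSSs were those of GENCODE M21 basic transcripts, and distances were signed by the strand of the TSS nearest to the summit. For the Pol II summits of members, this was the TSS nearest to the Qki-5 summit. Where a peak overlapped several Pol II peaks, the one with the highest fold was used. Sequences were read from the RefSeq GRCm38.p6 genome, and every peak end lay within its chromosome lengths. The study's text describes longer Qki-5 and Srebp2 lists than the deposited ones, for a reason not given in the sources used here. Shares carry exact Clopper-Pearson 95% intervals, which cover counting error only, since peaks are not replicates. No test was made. Python 3.11.15 with pandas 2.3.3, numpy 2.4.6, scipy 1.17.1, pysam 0.24.0 and matplotlib 3.10.9 was used, and the selection was tested on simulated data.

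Genes were named for the 10 highest Qki-5 and Pol II folds, the 3 widest peaks, the Srebp2 overlaps strongest in Srebp2 fold, the highest of each of 16 gene lists, the peaks nearest to the 1 kb limit, the strongest without Pol II in Qk-/- cells, and Qk. Some genes of the rule were left out for space, and 1 item of the marker lists is not reported here. Genes outside it, among them all others named for a motif window, a gene class, a split peak, the strand limit or a list, were chosen after their values were seen. The members, lists, motifs and rule were chosen with earlier results of these data known, and the motif counts within CpG-rich windows were added after seeing the data.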

Additional observations from a re-analysis of the deposited data

How the results depend on the processing

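The selection and the shares were recomputed under 7 other settings each, and further ones for Pol II in Qk-/- cells and CpG content. The number of peaks, 2858, was within 1.5 times under all but one setting, and was 1510 with a Qki-5 fold of at least 5. The share with a Pol II peak in Qk-/- cells, 91.7%, was 47.0% when the Qk-/- peak had to cover 50% of the WT peak, by construction a stricter overlap, 89.7% with a Qki-5 fold of at least 5, 90.0% and 93.1% with TSS limits of 2 kb and 500 bp, 93.6% with a WT Pol II fold of at least 5 and 94.8% with protein-coding transcripts only. The CpG-rich share, 80%, was 71.5% with a CpG minimum of 0.75 by construction, and 78.3%, 76.9%, 83.0% and 84.4% with a Qki-5 fold of at least 5, limits of 2 kb and 500 bp and protein-coding transcripts. The protein-coding share, 90.8%, was 88.9% with a Qki-5 fold of at least 5, 92.5% at 500 bp and 100% with protein-coding transcripts, by construction. For the other moves the cause was not tested. The downstream share (54.8% to 55.9%) and the Srebp2 share (0.596% to 0.821%) stayed within their counting intervals. No paired analysis was possible because each antibody and genotype had 1 library and no replicate numbers, and no library could be left out. Depth is unknown, so a peak that is missing from a list may lie under its threshold.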
